A study of Mus musculus with 4 samples.

Results

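The 10 transcription factors that steer mesenchymal cells toward or away from the fat lineage considered here were read in brown-like adipocytes of 2 genotypes: the early B-cell factors Ebf1, Ebf2 and Ebf3, the zinc finger proteins Zfp423, Zfp521 and Zfp467, the GATA factors Gata2, Gata3 and Gata6, and the basic helix-loop-helix factor Tcf21. The members were set by name, and every probe set whose platform annotation gives one of these genes alone was used. All 10 genes were represented, by 25 of the 34945 probe sets that name 1 gene. The cells came from the stromal vascular fraction (SVF) of epididymal white fat, what remains of the tissue without its mature fat cells, preadipocytes among them, and they were differentiated in culture. Donors were male mice aged 4 months, wild-type or Lgr4 homozygous mutant (Lgr4 is a receptor that amplifies Wnt signalling), and each genotype was represented by 2 arrays labelled as biological replicates. Both genotypes received the same culture: DMEM with 10% serum and bFGF at 10 ng/ml, then 48 h with dexamethasone (1 µM), troglitazone (5 µM, which activates PPAR gamma), T3 (50 nM, a thyroid hormone), isobutylmethylxanthine (0.5 mM) and insulin (5 µg/ml), then another 6 days in which only T3, troglitazone and insulin were added. No source used here gives the kind of Lgr4 mutation, the strain or the number of donors per array. The wells were mixed cultures taken after differentiation, so the arrays do not show the commitment step itself.

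These factors act at different points of the fat lineage. EBF proteins bind DNA as dimers and help to switch on Pparg and Cebpa, and Ebf2 marks brown and beige precursors and opens brown-fat genes. Zfp423 promotes preadipocyte commitment downstream of bone morphogenetic protein (BMP) signals and restrains the thermogenic program in white adipocytes, in part by binding Ebf2. Its close relative Zfp521 counteracts EBF activity and holds back adipogenesis. Zfp467 favours the adipocyte over the bone-forming fate. Gata2 and Gata3 are expressed in preadipocytes and delay their differentiation, and Tcf21 is typical of visceral white precursors and helps to keep them undifferentiated. Gata6 is a developmental factor of mesoderm and endoderm.

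Of the 10 factors, Zfp423 and Ebf2 were higher in the mutant cultures and Zfp521 was lower, while the other 7 did not pass the test. Each gene was represented by its brightest probe set and tested with limma across 13173 genes, at an adjusted p of 0.05; a gene entered if its mean over the 4 arrays exceeded a log2 signal of 6.13. In that comparison 29.8% of all tested genes passed, 11.1% higher and 18.7% lower in the mutant, so the members' count was near the background. The higher ones made up 37.1% of these calls, and between 30.7% and 48.5% under other scalings of the arrays. Of the members 9 entered; Gata3 lay below the filter, and Zfp423 entered only through its mutant arrays. The median log2 difference of the 9 was 0.082, beside -0.035 over all tested genes, and their median absolute difference was 0.188 beside 0.201.

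A second fit, without a filter, took in every probe set that names 1 gene. There 15.5% of all probe sets passed (5.96% higher and 9.56% lower), and 4 of the 25 member probe sets were higher, 1 was lower and 20 did not pass, 7 of the 25 having an unadjusted p under 0.05. The 4 that rose were the Zfp423 probe set and all 3 of Ebf2, which come from the same transcripts and are not independent. In 11 member probe sets both mutant values lay above both wild-type values, in 2 both lay below and in 12 the genotypes overlapped, while over all probe sets 59.5% did not overlap (27.9% with the mutant above and 31.6% with the mutant below). In these mixed cultures, more cells of a type and more RNA per cell cannot be told apart.

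**Figure D1:**
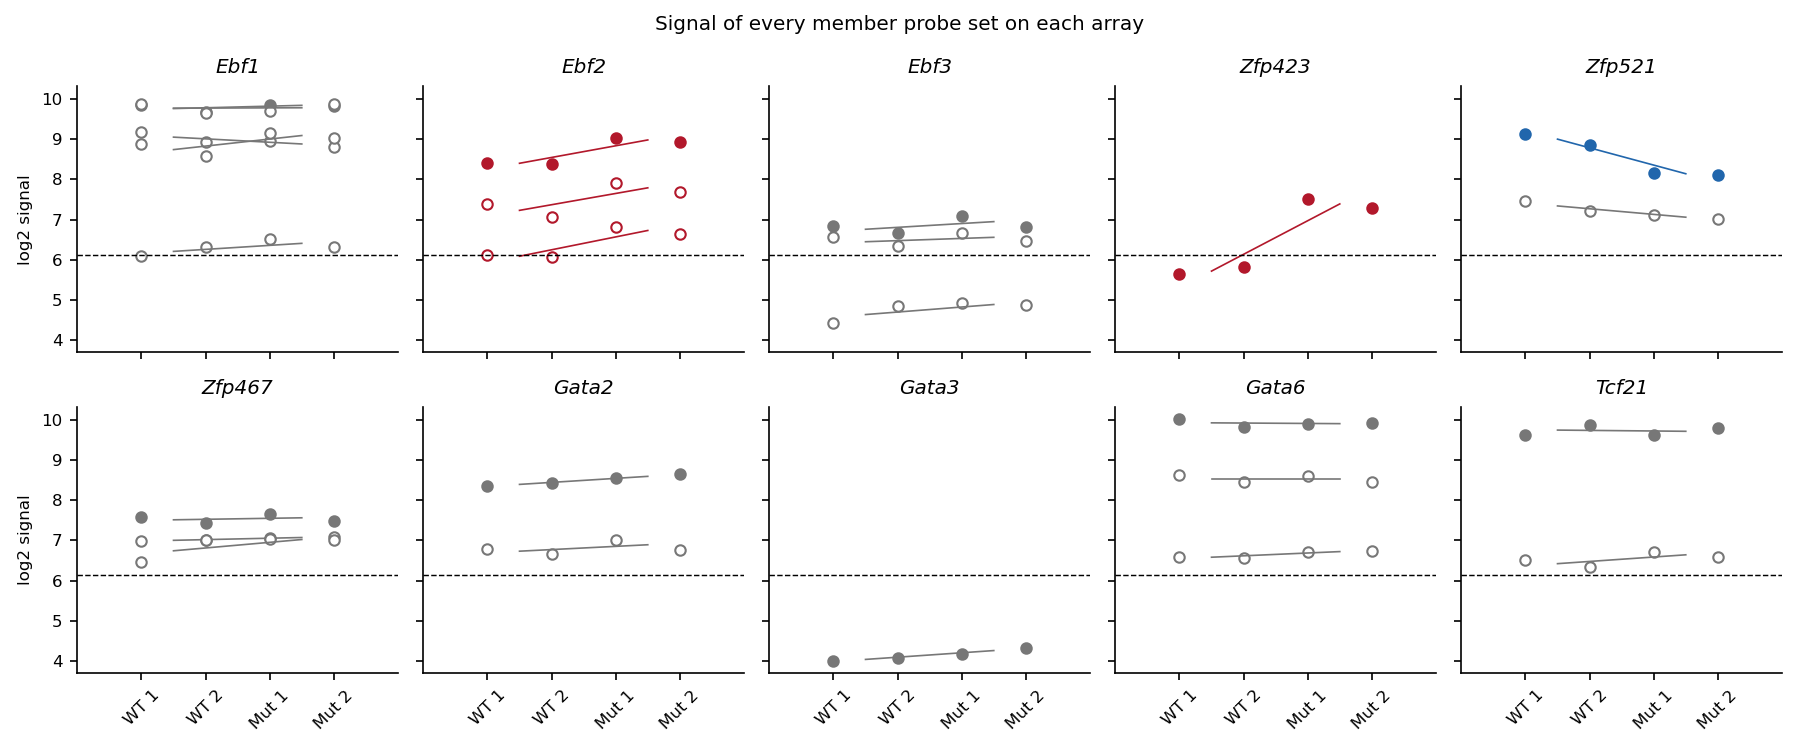
Log2 signal (vertical axis) of each member probe set on the wild-type (WT) and mutant (Mut) arrays; filled points are the probe set used for the gene, lines join the genotype means, red and blue mark probe sets that passed upward and downward in the fit of every probe set, and the dashed line is the signal filter of 6.13. Zfp423 and the 3 Ebf2 probe sets run upward, the brighter Zfp521 probe set runs downward, and Gata3 lies near 4 on every array.

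Zfp423 showed the largest difference of the 10. Its probe set, 1419380_at, gave 5.64 and 5.81 (wild-type) and 7.50 and 7.28 (mutant). Both wild-type values were below the signal filter and both mutant values above it, with no overlap. The genotype means were 5.72 ± 0.12 and 7.39 ± 0.16 (SD, n = 2), a log2 difference of 1.67 (SE 0.11, limma adjusted p = 2.33e-05), or 3.18-fold, with a 95% interval of 2.65-fold to 3.81-fold. Because the wild-type signal was near background, this fold is approximate. Zfp423 was named by a single probe set, so no second one could be set beside it.

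The Zfp423 gene lies on the minus strand of mouse chromosome 8, at chr8:87661810-87962053 (GRCm38.p6), and the RefSeq promoter table holds windows for 2 of its starts. These windows are shown because Zfp423 moved most of all members. Each covers 250 bases before to 50 bases after the start, printed 5′ to 3′ on the gene's strand, in lower case, with any match to the letters of 5 motifs given further on in capitals. The window called upstream here is chr8:87959546-87959845 and the one called internal is chr8:87804390-87804689. Both lie inside the span of the gene, and neither covers its outermost 5′ end at 87962053.
Zfp423 upstream start: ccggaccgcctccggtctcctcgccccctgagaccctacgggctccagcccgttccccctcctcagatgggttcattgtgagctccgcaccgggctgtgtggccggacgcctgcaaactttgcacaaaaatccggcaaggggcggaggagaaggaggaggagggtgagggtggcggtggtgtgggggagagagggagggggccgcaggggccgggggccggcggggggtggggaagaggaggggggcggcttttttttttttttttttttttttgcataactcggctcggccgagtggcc
Zfp423 internal start: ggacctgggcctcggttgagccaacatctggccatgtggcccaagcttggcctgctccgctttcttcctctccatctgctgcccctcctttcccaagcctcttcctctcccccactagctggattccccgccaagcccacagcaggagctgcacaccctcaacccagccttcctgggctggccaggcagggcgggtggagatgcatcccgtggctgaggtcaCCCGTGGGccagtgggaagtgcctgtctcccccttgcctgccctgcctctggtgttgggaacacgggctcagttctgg
The upstream window was 65.7% G and C with 21 CpG dinucleotides, and the internal one was 65.0% with 7, beside medians of 52.7% and 7 over 32851 promoter windows of this length. The array does not tell which start was used.

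Motifs of the factor families were looked for on both strands of these windows and of those of the other members, 10 windows of 7 genes in all (RefSeq, GRCm38.p6; Ebf2, Zfp521 and Gata6 had no entry in the table). The letters searched were CCCNNGGG, the core of the EBF palindrome (in 13.7% of all windows), AGATAA for GATA factors (11.2%), CAGCTG for the E-box of helix-loop-helix factors (16.3%), CTTTGAT for the Wnt-responsive TCF/LEF factors (3.73%) and GGCGCC for Smad1 and Smad5 (11.9%). The upstream Zfp423 window held none of the 5, and the internal one held the EBF core once, 28 bases before the start. The EBF core was in 6 of the 10 member windows: also in those of Ebf3, Zfp467 and Tcf21 and in both of Gata2. These are mostly rich in G and C, with a G and C content at a percentile of 82.3 or more among all windows, except that of Tcf21 (52.5). The Smad letters occurred at 2 places each in the Ebf3 window, the Gata3 window and 1 of the Gata2 windows, and the E-box letters once in each of the latter pair; in the Gata2 window the E-box and the second Smad match share a base, and its EBF matches overlap each other. No member window held the TCF/LEF letters. The GATA letters occurred once, 31 bases before the Tcf21 start, and the EBF core lay there 66 bases before it. That window, chr10:22820094-22820393 on the minus strand, is shown with both matches in capitals because it alone held the GATA letters.
Tcf21 start: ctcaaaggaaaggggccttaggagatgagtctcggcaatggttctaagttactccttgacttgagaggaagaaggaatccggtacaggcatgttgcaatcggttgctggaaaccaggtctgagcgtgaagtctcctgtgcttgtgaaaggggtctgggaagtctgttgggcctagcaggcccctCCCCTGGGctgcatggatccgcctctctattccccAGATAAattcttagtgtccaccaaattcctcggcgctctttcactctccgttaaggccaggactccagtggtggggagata
These are matches of letters and not measured binding.

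Ebf2 rose by all 3 of its probe sets. The brightest, 1418494_at, gave 8.41 and 8.39 (wild-type) and 9.03 and 8.93 (mutant), so the genotypes were apart and each pair was tight. The means were 8.40 ± 0.014 and 8.98 ± 0.068 (SD, n = 2), a log2 difference of 0.58 (SE 0.094, limma adjusted p = 0.0027), or 1.5-fold (95% interval 1.29-fold to 1.74-fold). Probe set 1449102_at read 7.40 and 7.06 (wild-type) and 7.90 and 7.68 (mutant) (difference 0.56, adjusted p = 0.034 in the fit of every probe set). The dimmest, 1449101_at, read 6.11 and 6.07 (wild-type, just below the filter) and 6.81 and 6.65 (mutant) (0.63, adjusted p = 0.00659). The 3 estimates thus lay between 0.56 and 0.63 although the signals spanned over 2 log2 units. In the fit of every probe set, the calls for 1418494_at (0.53, adjusted p = 0.126), 1449102_at (0.45, 0.271) and 1449101_at (0.55, 0.116) ended without mutant replicate 1. Without mutant replicate 2 those for 1418494_at (0.63, adjusted p = 0.07) and 1449102_at (0.67, 0.109) ended, and without wild-type replicate 2 that for 1449102_at (0.39, 0.0621). With 1 probe set per gene the Ebf2 call held in each of these (adjusted p up to 0.0379).

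The other EBF genes did not pass. Ebf1, the founding member of the family, was read by 5 probe sets, whose differences ran from -0.18 to 0.35. The brightest, 1448293_at, read 9.84 and 9.67 (wild-type) and 9.85 and 9.83 (mutant), which overlap (difference 0.08, SE 0.10, 95% interval -0.15 to 0.31, limma adjusted p = 0.569). The upper end of that interval is a 1.24-fold rise, from the spread of these arrays alone, and sets no limit for the gene. One Ebf1 probe set, 1416302_at, stood apart from the other 4, at 8.88 and 8.59 (wild-type) and 9.15 and 9.03 (mutant). Its adjusted p of 0.101 (difference 0.35) missed the threshold; the difference passed at 0.43 when the arrays were quantile-normalized again (0.0496), and at 0.50 without wild-type replicate 1 (0.0306). The 3 Ebf1 probe sets with the same source sequence, 1448293_at, 1416301_a_at and 1416302_at, gave 0.08, 0.01 and 0.35.

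Ebf3 was read by 3 probe sets at low signal. The brightest, 1452751_at, read 6.85 and 6.67 (wild-type) and 7.08 and 6.82 (mutant) (difference 0.19, SE 0.12, 95% interval -0.09 to 0.46, limma adjusted p = 0.272), and the genotypes overlapped. The others differed by 0.11 and 0.25, the last of them, 1460666_a_at, between 4.44 and 4.92 on all arrays and so below the filter. It passed only without wild-type replicate 2 (0.45, adjusted p = 0.02), of the alternatives run.

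Within each array the Ebf2 signal was set against that of its relatives, so that only unequal change counts. Each gene was read by its brightest probe set. The log2 signal of Ebf2 minus that of Ebf1 was -1.43 and -1.28 (wild-type) and -0.82 and -0.89 (mutant), a shift of 0.50. Against the Ebf1 probe set 1416302_at, which itself differed by 0.35, the shift would be smaller. Against Ebf3 the values were 1.56 and 1.72 (wild-type) and 1.95 and 2.12 (mutant), a shift of 0.39. Both shifts separated the genotypes, and each had an exact permutation p of 0.333 (two-sided, n = 2 per genotype), the smallest that 2 against 2 arrays can give, so neither could pass. In all 7 such pairs of members were compared and all 7 gave this p, which adjustment leaves at 0.333.

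**Figure D2:**
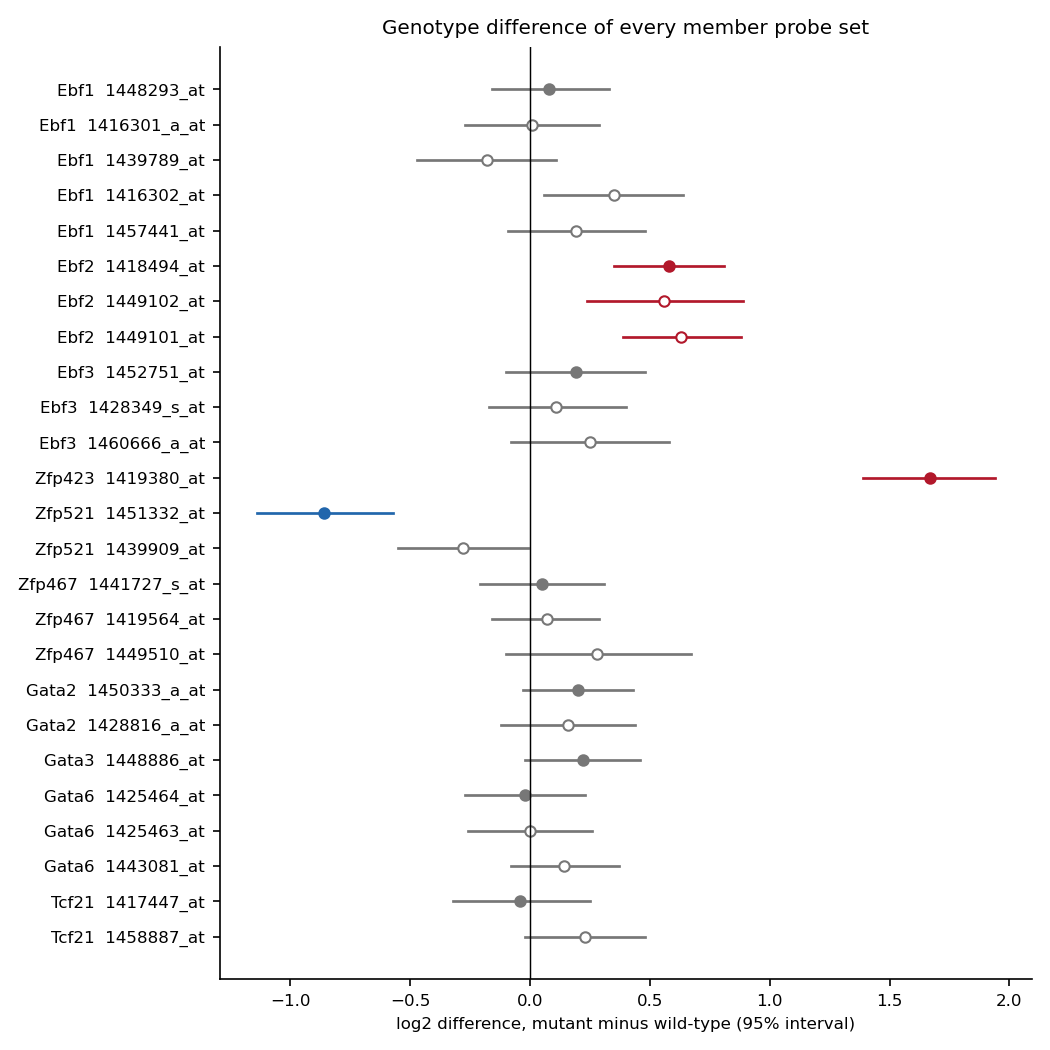
Log2 difference of each member probe set, mutant minus wild-type (horizontal axis), with its 95% interval from the fit of every probe set; red passed upward, blue passed downward, grey did not pass, and filled points are the probe set used for the gene. The 3 Ebf2 probe sets lie between 0.56 and 0.63, Zfp423 lies at 1.67, and the pair of Zfp521 probe sets lies at -0.86 and -0.28.

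Zfp521 was the member that fell. Its brighter probe set, 1451332_at, gave 9.14 and 8.85 (wild-type) and 8.16 and 8.12 (mutant), with no overlap. The means were 9.00 ± 0.21 and 8.14 ± 0.031 (SD, n = 2), a log2 difference of -0.86 (SE 0.12, limma adjusted p = 0.00114), or 1.81-fold lower. In size this ranked at the 94.5th percentile of tested genes, and counted from the largest fall Zfp521 ranked 270th. The dimmer probe set, 1439909_at, read 7.46 and 7.22 (wild-type) and 7.11 and 7.01 (mutant). It did not overlap either, but its difference of -0.28 was smaller and did not pass (95% interval -0.55 to -0.01, adjusted p = 0.157). Averaged over both probe sets the difference was -0.57 (adjusted p = 0.00877). The dimmer one passed only without wild-type replicate 2 (-0.40, adjusted p = 0.0344), of the alternatives run.

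Zfp423 and Zfp521, close relatives of opposite action in preadipocytes, thus went opposite ways. Zfp423 minus Zfp521 was -3.51 and -3.04 (wild-type) and -0.66 and -0.84 (mutant), a shift of 2.53 on the log2 scale (exact permutation p = 0.333, two-sided, n = 2 per genotype). Its size is approximate, since the wild-type Zfp423 signal was below the filter. The values before the shift depend on the probes and do not say which transcript was the more abundant.

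Zfp467 did not pass by any of its 3 probe sets. The brightest, 1441727_s_at, read 7.59 and 7.44 (wild-type) and 7.65 and 7.48 (mutant) (difference 0.05, SE 0.11, 95% interval -0.19 to 0.29, limma adjusted p = 0.754). The suffix _s_at marks probes that can match more than one transcript, so this set may read others too. Probe set 1419564_at was steady at 6.99, 7.01, 7.05 and 7.08 over the 4 arrays. In 1449510_at wild-type replicate 1 was low (6.47) while the other arrays lay at 7.0 to 7.04, and without wild-type replicate 2 its difference of 0.28 became 0.55 and passed (adjusted p = 0.0106). Against Zfp467 within each array, Zfp521 shifted by -0.91 and Zfp423 by about 1.62, again from a wild-type signal below the filter.

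The GATA factors did not pass. Gata2, which restrains preadipocyte differentiation, read 8.36 and 8.42 (wild-type) and 8.54 and 8.64 (mutant) by 1450333_a_at, a difference of 0.20 with no overlap (SE 0.095, 95% interval -0.02 to 0.42, limma adjusted p = 0.153). Its other probe set overlapped (6.79 and 6.66 against 7.02 and 6.75, difference 0.16, adjusted p = 0.418). As a ratio of mutant over wild-type the interval of the brighter one ran from 0.985 to 1.33. In the fit of every probe set its log2 interval was -0.03 to 0.43, so a small fall is not excluded. Gata3 read 4.00 and 4.07 (wild-type) and 4.18 and 4.33 (mutant), below the filter on every array (difference 0.22, adjusted p = 0.167 in the fit of all genes), so no level of this factor could be told from background here.

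Gata6 was among the steadier members. Probe set 1425464_at read 10.02 and 9.82 (wild-type) and 9.89 and 9.91 (mutant) (difference -0.02, SE 0.10, 95% interval -0.26 to 0.22, limma adjusted p = 0.896). Probe set 1425463_at read 8.62 and 8.45 against 8.61 and 8.46. The dimmest, 1443081_at, read 6.59 and 6.56 against 6.70 and 6.74 and did not overlap, but missed the threshold (0.14, adjusted p = 0.359). Tcf21, the visceral precursor factor, overlapped as well by its brighter probe set, 1417447_at, at 9.62 and 9.86 (wild-type) and 9.61 and 9.80 (mutant) (difference -0.04, SE 0.12, 95% interval -0.31 to 0.24, limma adjusted p = 0.846). Its dimmer probe set read 6.50 and 6.33 against 6.70 and 6.59 (0.23, adjusted p = 0.204). The signs of the small Gata6 and Tcf21 differences turned under other scalings, and the 95% intervals of the mutant over wild-type ratio ran from 0.837 to 1.16 for the Gata6 probe set used and from 0.809 to 1.18 for that of Tcf21.

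**Figure D3:**
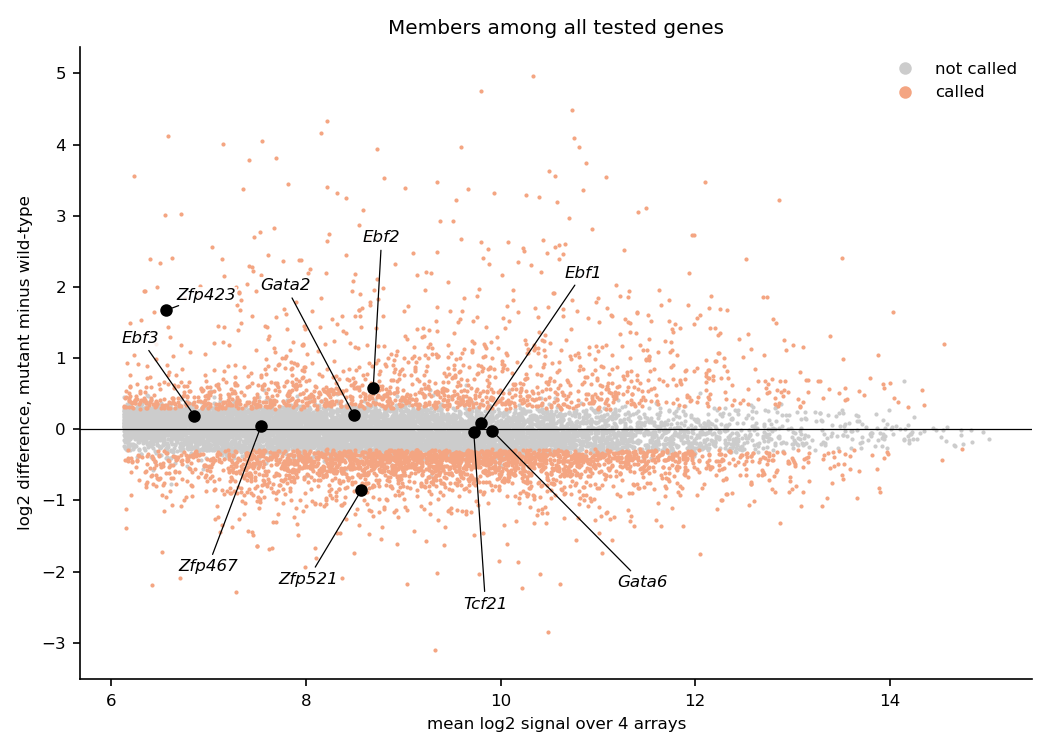
Log2 difference, mutant minus wild-type (vertical axis), against mean log2 signal (horizontal axis) of the 13173 tested genes; orange genes passed the test, grey ones did not, and black points are the 9 members above the filter. Zfp423 (1.67) and Ebf2 (0.58) lie in the upper orange field and Zfp521 (-0.86) in the lower one, while the other 6 lie in the grey band.

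The labelled cell type was checked by markers. Adipoq, an adipocyte hormone, was well above the filter on all arrays, at 11.26 and 11.24 (wild-type) and 14.48 and 14.45 (mutant). Ucp1, which defines brown fat, was below it in wild-type (4.99 and 5.86) and above it in mutant cultures (8.17 and 7.49). Of 8 listed brown-fat genes 6 were tested: 4 rose, Ucp1 among them, while Prdm16 (5.95 to 6.29) and Dio2 (6.37 to 6.61) did not pass. Of those not tested, Cidea lay below the filter on every array (4.87 to 5.10). Ppargc1a lay below it in wild-type (4.85 and 5.02) and above it in mutant cultures (6.86 and 6.83). Markers of several cell types differed between genotypes beside the members, as did 11.1% (higher) and 18.7% (lower) of all tested genes. All 7 measured adipocyte markers of a list of 8 rose, and the list's mean log2 signal was 10.37 and 10.44 (wild-type) and 12.94 and 12.88 (mutant). Among 10 macrophage markers 5 fell and 5 did not pass (list mean 11.47 and 11.52 against 11.17 and 11.15), and of 7 adipose progenitor markers measured, 2 fell and 5 did not pass (8.39 and 8.39 against 8.22 and 8.30). Of 9 pericyte and smooth muscle markers 3 rose and 5 fell, and of 7 endothelial markers tested 2 rose. By limma, the 4 mesothelial, 3 epithelial, 2 mast cell and 1 B cell markers tested did not pass, 2 of them, both epithelial, having an unadjusted p under 0.05, and most of the mast cell markers (4 of 7) and 3 of 6 epithelial ones lay below the filter on every array. Of 8 T cell and innate lymphoid markers tested 2 fell, Thy1 and Ptprc, which other cells also express. The part of cell content in the changes of Zfp423, Ebf2 and Zfp521 was not tested. The labels were checked by Lgr4, which gave 8.65 and 8.20 (wild-type) and 6.18 and 6.09 (mutant) by its brighter probe set (difference -2.29), while a dim second one read 5.28 and 5.23 against 5.37 and 5.31.

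Among 19 tested partners of EBF and zinc finger factors, including BMP and Smad genes, 2 rose, 5 fell and 12 did not pass, with a median difference of -0.14. Over all tested genes 11.1% rose and 18.7% fell. Ccn5, a secreted protein that also binds Zfp423 in the cytoplasm and keeps it from the nucleus, read 11.00 and 11.22 (wild-type) and 9.06 and 9.45 (mutant), and fell by 1.86 (limma adjusted p = 4.84e-05). Bmp4, a ligand that drives preadipocyte commitment and releases Zfp423 from that complex, read 6.83 and 6.81 (wild-type) and 7.77 and 7.68 (mutant), a rise of 0.91 (adjusted p = 0.000246). Neither Ccn5 nor Bmp4 overlapped between genotypes, but 59.5% of all probe sets did not overlap either. The other BMP ligands listed did not share the rise of Bmp4. Bmp2 fell by 0.44 (limma adjusted p = 0.0277), and Bmp7 did not pass (0.18, adjusted p = 0.241). Of the genes that carry the BMP signal into the cell, Smad1 fell by 0.52 (adjusted p = 0.00619) and the receptor Bmpr2 by 0.49 (adjusted p = 0.0189), a call that ended without mutant replicate 2 (adjusted p = 0.127). Zbtb16, another zinc finger transcription factor, rose from 7.49 and 7.66 to 8.69 and 8.68 (1.10, adjusted p = 0.000116).

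Zinc finger factors such as Zfp423 and Zfp521 and the GATA cofactor Zfpm1 recruit the NuRD complex, a chromatin remodeller and histone deacetylase. Of its 13 genes tested 1 rose, 1 fell and 11 did not pass, with a median difference of 0.00, while 29.8% of all tested genes passed. The MBD family subunits differed in direction: Mbd3 rose by 0.35 (limma adjusted p = 0.0412) and Mbd2 fell by 0.42 (adjusted p = 0.013). Both calls ended without mutant replicate 1 (adjusted p = 0.354 and 0.191) and without mutant replicate 2 (0.113 and 0.0553), and that of Mbd3 also without wild-type replicate 1 (0.066), without the filter (0.0542) and after centring on the array median (0.0544).

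Among GATA relatives and cofactors, 11 were tested, 10 did not pass and 1 fell, with a median of -0.07, while 29.8% of all tested genes passed. The one that fell was Ctbp2, a corepressor (-0.60, limma adjusted p = 0.00584). It read 10.44 and 10.17 (wild-type) and 9.66 and 9.74 (mutant).

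Among the helix-loop-helix partners of Tcf21 and other factors of visceral mesenchyme, 14 were tested, 2 rose, 5 fell and 7 did not pass (median -0.09). The shares over all tested genes were 11.1% higher and 18.7% lower. Prrx1, a homeobox factor of mesenchymal progenitors, fell from 12.46 and 12.17 to 11.18 and 11.23 (-1.11, limma adjusted p = 0.000287). Tcf4, an E protein that can pair with factors such as Tcf21, fell by 0.58 (adjusted p = 0.00266). Tbx18, a factor of mesothelium and its descendants, fell by 0.48 (adjusted p = 0.0404). Twist2, a helix-loop-helix repressor, rose by 0.78 (adjusted p = 0.000823) and the nuclear receptor Nr2f2 by 0.36 (adjusted p = 0.0252). Twist1 of the same list went the other way and fell by 0.35 (adjusted p = 0.031). The Nr2f2 call ended without mutant replicate 1 (adjusted p = 0.209), without mutant replicate 2 (0.173) and when its probe sets were averaged (0.19, 0.132). The Tbx18 call ended without wild-type replicate 1 (-0.27, 0.0787), without mutant replicate 2 (0.196), and under 3 other settings (adjusted p = 0.0635, 0.0678 and 0.0524).

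In the adipocyte differentiation list 7 of 9 tested genes rose and 2 fell, with a median difference of 1.26. In the brown-fat list 4 of 6 tested genes rose and 2 did not pass, with a median of 1.92. Over all tested genes 11.1% rose and 18.7% fell. The other 2 of the 8 listed brown-fat genes had means below the filter and are not in this count or median. Ucp1 entered only through its mutant arrays. Pparg, a target of EBF proteins and Zfp423, read 8.10 and 7.73 (wild-type) and 10.85 and 10.82 (mutant) (2.92, limma adjusted p = 2.19e-06). For the uncoupling protein Ucp1, which Ebf2 helps to activate, the difference was 2.40 (adjusted p = 5.68e-04), against a wild-type signal below the filter. Zfp423, which restrains the thermogenic program in white adipocytes, rose as well. The part of either factor in the Ucp1 difference was not tested.

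**Figure D4:**
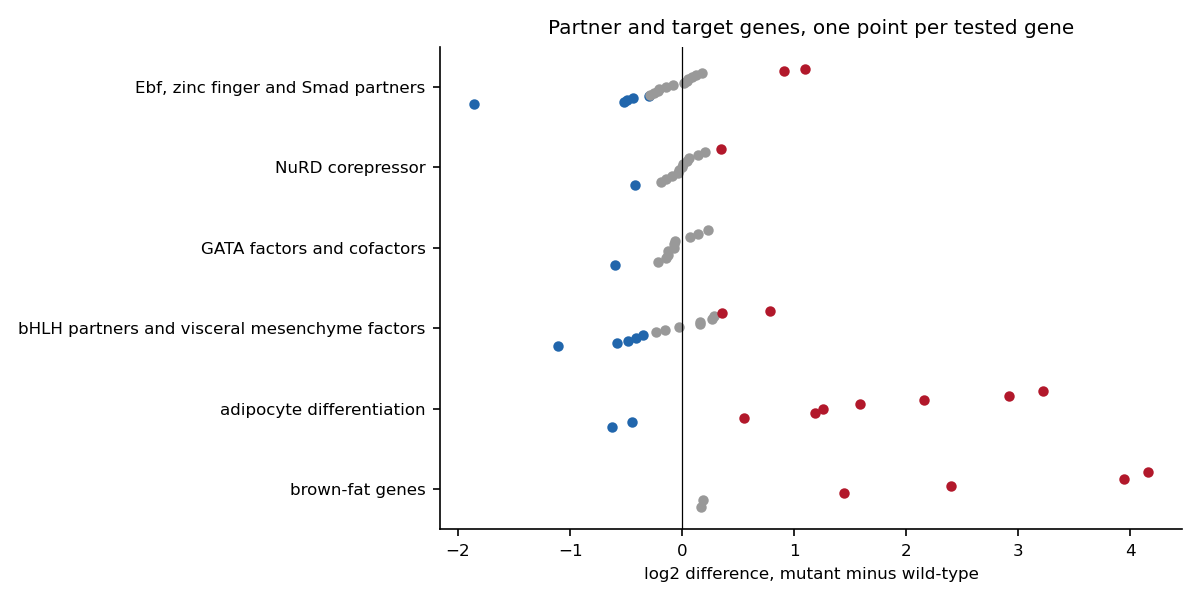
Log2 difference, mutant minus wild-type (horizontal axis), of each tested gene in 6 lists of partner and target genes; red passed upward, blue passed downward, grey did not pass. The adipocyte and brown-fat lists spread to the right, with medians of 1.26 and 1.92, while the medians of the 4 partner lists lie between -0.14 and 0.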

How the data were processed

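Total RNA (500 ng per sample) was hybridised to Affymetrix 3' expression arrays, 2 per genotype. The authors deposited 1 log2 signal for each probe set and array, made with Partek 6.6 and RMA per the submitters' processing notes. The values ran from 2.86 to 15.2, from which the log2 scale was inferred, and no source used here gives the RMA variant. RMA commonly equalises distributions between arrays and compresses differences near background. The deposited arrays were still not fully equal: their upper quartiles were 8.55 and 8.52 (wild-type) and 8.47 and 8.46 (mutant). The number of arrays limits the precision.

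Control probe sets (64 of 45101) and those naming several genes (932) or none (9160) were left out. The comparison of genotypes used lmFit and eBayes of limma 3.58.1 (R 4.3.3) with Benjamini-Hochberg adjustment, with the brightest probe set per gene above the 40th percentile of mean signal, and, without filter, over all probe sets naming 1 gene. Each p-value is 2-sided. Beyond calling the replicates biological, nothing says whether they came from separate animals or cultures, so p-values reflect the spread of these samples alone, which may be technical. The fit was tested on simulated data. The median absolute difference was 0.137 within the wild-type pair and 0.0873 within the mutant pair.

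Members and gene lists were chosen with earlier results of these data known. Genes of the partner lists are named by rule: in each list the genes past the threshold with the largest change, at most 3 per direction. Of the genes that this rule gave for the target lists, only Pparg and Ucp1 are described as targets. No rule set this choice, and other genes of these lists rose further. Lgr4 was the check of the labels. Adipoq, Thy1, Ptprc, Prdm16, Dio2, Cidea, Ppargc1a, Bmp2, Bmp7 and Twist1 were named after their values were seen. Gene names and positions came from RefSeq (GRCm38.p6). Alternatives were a replicate block, each array left out, a second quantile normalization, centring, a variance trend, other filters and averaged probe sets.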

Additional observations from a re-analysis of the deposited data

How the results depend on the processing

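Zfp423, Ebf2 and Zfp521 kept their direction and stayed past the threshold, with 1 probe set per gene, in every alternative that tested them: Ebf2 between 0.53 and 0.65, Zfp423 between 1.56 and 1.78 and Zfp521 between -1.0 and -0.57. Zfp423 was not tested with a filter at the 60th percentile, where 1 member in place of 2 rose. No other member passed in any of them. Leaving out 1 array, with the lone array assumed to vary like the other genotype, gave between 1851 and 6349 calls in place of 3924, and between 1334 and 9057 over every probe set in place of 5420. The replicate numbers were not stated to pair the samples, and deviations of same-numbered arrays correlated at 0.164. The replicate block gave 8534 calls over every probe set, among them Ebf1 1416302_at (0.35, limma adjusted p = 0.0233), and changed no member's call with 1 probe set per gene. Its limma adjusted p-values, down to 3.29e-44 among members (Zfp423), are too small to take at face value from 4 arrays. The block is thus a weak check of these calls. The share of calls that were higher was 37.1%; it was 30.7% with each array centred on its median, 44.1% after a second quantile normalization and 48.5% with arrays centred on the tested genes (chosen after seeing the data).

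Only differences that had not passed changed sign. Gata6 was 0.06 after a second quantile normalization, 0.04 with averaged probe sets, 0.03 centred on the tested genes, and between -0.12 and 0.08 with 1 array left out. Tcf21 was 0.04, 0.10 and 0.02 under these settings, and between -0.15 and 0.08. With 1 array left out Ebf1 lay between 0.00 and 0.17 and Zfp467 between -0.04 and 0.14. The probe sets Ebf1 1416301_a_at (-0.02) and Gata6 1425463_at (-0.03) turned after centring on all probe sets, and with 1 array left out lay between -0.10 and 0.12 and between -0.08 and 0.09. The cause of these changes was not tested.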
